A study of Danio rerio with 6 samples.

Results

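RNA-seq counts were analysed for 10 zebrafish genes that make or restrain bone morphogenetic protein (BMP) signals, out of 22350 genes in the count table. They were the genes named bmp2a, bmp2b, bmp4, bmp6, smad6a, smad6b, fsta, fstb, bambia and bambib in the deposited annotation, and all 10 were found and passed the filter on low counts, which left 19562 genes for testing. The samples came from wild-type AB larvae whose spinal cord was cut through completely, level with the anal pore, when they were 5 days old. After 6 h of recovery, larvae of the IWR-1 group (3 libraries) were placed in 35 µM IWR-1 with 0.25% DMSO as its carrier, and larvae of the DMSO group (3 libraries) in 0.25% DMSO alone. IWR-1 blocks Wnt/β-catenin signalling by stabilising Axin, a scaffold of the complex that degrades β-catenin. Trunk tissue of about 1 mm around the injury was taken at 3 days post injury (8 days post fertilization), with 20 animals pooled per library. All 6 libraries came from injured larvae, so the comparison is of IWR-1 against DMSO after injury.

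BMPs are secreted ligands of the TGF-beta superfamily. They bind paired type I and type II receptor kinases, which phosphorylate Smad proteins that enter the nucleus with Smad4 and switch on targets such as the id and msx genes. The pathway is held in check at several levels: follistatins bind activins and some BMPs outside the cell, Bambi is a membrane pseudoreceptor without a kinase domain, and Smad6 is an inhibitory Smad inside the cell. Smad6 and Bambi are themselves induced by BMP signalling in vertebrates, and BAMBI has been described as a β-catenin target in human cells. In zebrafish, BMPs pattern the embryonic dorsoventral axis, the dorsal neural tube and the fin folds.

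Library totals ran from 11014963 to 15219664 counts. The 10 genes had between 24 and 752 counts in each library. Of the 12 marker lists used to check the tissue, those of muscle, neuron, glia, notochord, epidermis and fibroblast genes were detected. Their genes were above 0 in every library, except the glial gene her4.1, at 0 in DMSO replicate 2. DMSO replicate 2 differed most from the other libraries of its group (chi-square per degree of freedom of 24.4 and 43.4, against 13.4 between the other DMSO libraries).

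All 10 genes had a log2 fold change below 0 with IWR-1, as did 50.5% of all tested genes, and 6 of them fell at a Benjamini-Hochberg adjusted p below 0.05 in edgeR's quasi-likelihood test over all genes: both bambi genes, bmp2a, bmp6, smad6b and fstb. Over all tested genes, 3.59% were called lower by the same test. The largest falls among the 10 were those of bambia and bambib, whose means were 28.4% and 30.6% of the DMSO means, followed by bmp2a at 41.8%. The median log2 fold change of the 10 genes was -0.69, against -0.01 over all tested genes. The values of the 3 IWR-1 libraries lay wholly below those of the 3 DMSO libraries for 8 of the 10 genes, against 15.6% of all tested genes. bmp2b and bmp4 were the exceptions. The 10 genes were chosen with earlier results of these data known, so their shares and median beside all genes do not test them as a set. The summed levels of fin fold mesenchyme, fibroblast, epidermal, pigment cell, bone and endothelial markers were lower with IWR-1 as well, without overlap between the groups. Most of the fibroblast sum came from col1a1a and col1a2, most of the epidermal sum from krt4 and krt5, and most of the bone sum from spp1. In a bulk sample fewer cells of a type and less RNA per cell cannot be told apart.

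**Figure D1:**
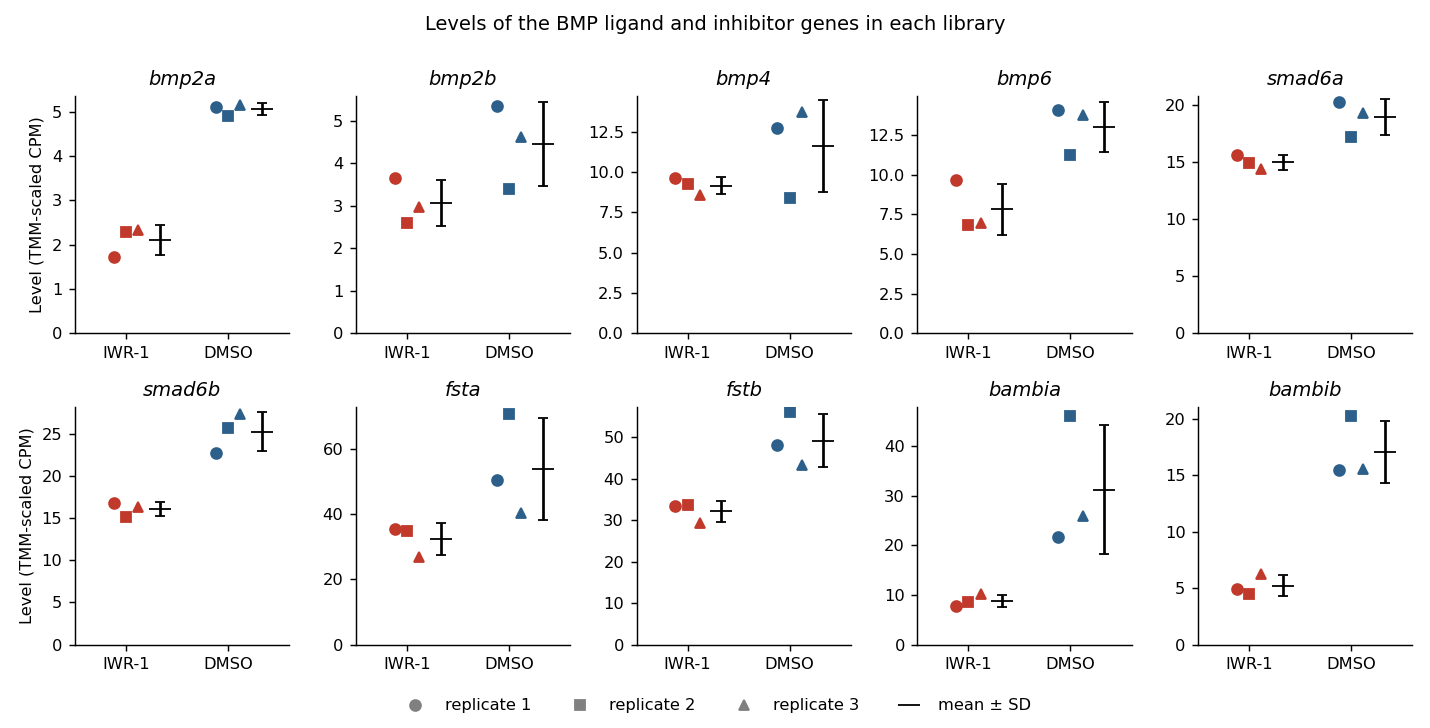
Levels of the 10 genes in each library, in TMM-scaled CPM, with IWR-1 libraries in red and DMSO libraries in blue; marker shapes give the replicate number and black bars the mean ± SD of 3 libraries. The groups are separate for all genes except bmp2b and bmp4, and DMSO replicate 2 is the highest library for fsta, fstb, bambia and bambib.

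The Bambi pseudoreceptors resemble type I receptors outside the cell but cannot signal. bambib (ENSDARG00000099677; GRCz11 chromosome 2, 4402765 to 4408818, plus strand) had 4.95, 4.48 and 6.23 CPM (counts scaled to the size of the library by edgeR's TMM method) in IWR-1 replicates 1, 2 and 3, against 15.4, 20.3 and 15.5 CPM in DMSO replicates 1, 2 and 3. The highest IWR-1 library lay far below the lowest DMSO library. Its log2 fold change was -1.70 ± 0.20 (SE), with an edgeR adjusted p of 0.000685. This was a fall of 3.25-fold (95% interval of the log2 fold change -2.14 to -1.27).

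bambia (ENSDARG00000055381; chromosome 12, 23424108 to 23430356, plus strand) had 7.82, 8.56 and 10.2 CPM in the IWR-1 libraries, against 21.7, 46.1 and 25.9 CPM in the DMSO libraries. The groups were far apart, and the coefficient of variation was 13.7% with IWR-1 and 41.6% with DMSO. bambia fell by 1.81 ± 0.27 on the log2 scale (edgeR adjusted p = 0.00285). Without DMSO replicate 2, the library with the high value, the log2 fold change was -1.42 at an edgeR adjusted p of 0.000356. Only 91 of 19562 tested genes had a fold change at or below that of bambia, and 105 at or below that of bambib. Both genes remained called when any 1 library was left out, with the highest edgeR adjusted p at 0.0178 for bambia and 0.00697 for bambib.

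Of the 4 ligand genes, 2 were called lower with edgeR, as were 3.59% of all tested genes. All 4 had a log2 fold change below 0, as had 50.5% of all tested genes. bmp2a (ENSDARG00000013409; chromosome 17, 4227254 to 4231532, minus strand) encodes a copy of BMP2, a ligand named for inducing bone. Its counts were 24, 29 and 33 in the IWR-1 libraries, against 64, 52 and 78 in the DMSO libraries. On the CPM scale these were 1.72, 2.28 and 2.34 with IWR-1, against 5.11, 4.90 and 5.15 with DMSO, so the DMSO libraries were nearly alike and the IWR-1 libraries all lay far below them. bmp2a fell by 1.26 ± 0.22 on the log2 scale, or 2.39-fold (edgeR adjusted p = 0.00794), and the call held without any 1 library (highest edgeR adjusted p 0.0393). An annotated gene on the opposite strand, CU929304.1, overlaps bmp2a, and AL935195.1 likewise overlaps msx2a, a gene described with the BMP targets. Neither overlapping gene was in the count table, and the strand setting of the counting is not given in the sources used here.

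The other ligand called lower was bmp6 (ENSDARG00000015686; chromosome 24, 7861373 to 7935809, plus strand), which in mammals is best known for setting hepcidin and iron levels. It had 9.68, 6.83 and 6.94 CPM in the IWR-1 libraries, against 14.1, 11.2 and 13.7 CPM in the DMSO libraries. The gap between the groups was narrow, since IWR-1 replicate 1 came close to DMSO replicate 2. The log2 fold change was -0.73 ± 0.19 at an edgeR adjusted p of 0.0436, just inside the threshold. Omitting DMSO replicate 1 or 3 gave an edgeR adjusted p of 0.148 or 0.0636, omitting replicate 2 or 3 of IWR-1 gave 0.171 or 0.215, and upper-quartile scaling gave 0.0556.

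bmp2b (ENSDARG00000041430; chromosome 20, 45893173 to 45899149, plus strand) is the ligand of the early zebrafish ventral signal. It had 3.66, 2.59 and 2.97 CPM in the IWR-1 libraries, against 5.35, 3.39 and 4.62 CPM in the DMSO libraries. IWR-1 replicate 1 lay above DMSO replicate 2, so the groups overlapped. The log2 fold change was -0.54 ± 0.25, with a 95% interval from -1.08 to 0.01, and did not pass (edgeR adjusted p = 0.213).

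bmp4 (ENSDARG00000019995; chromosome 17, 50564070 to 50586135, plus strand), a close relative of BMP2, had 9.61, 9.27 and 8.57 CPM in the IWR-1 libraries, against 12.7, 8.38 and 13.7 CPM in the DMSO libraries. DMSO replicate 2 was lower than all 3 IWR-1 libraries, while the other DMSO libraries were higher. The log2 fold change was -0.35 ± 0.20 (95% interval -0.80 to 0.10; edgeR adjusted p = 0.318). Without DMSO replicate 2 it was -0.53 at an edgeR adjusted p of 0.0649. Of the 10 genes, bmp4 was the only one with a pair of same-numbered libraries in which the IWR-1 library was the higher (log2 ratio 0.14 in replicate 2).

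The inhibitory Smad genes differed in their calls. smad6b (ENSDARG00000031763; chromosome 18, 19648275 to 19699061, plus strand) had 16.8, 15.1 and 16.4 CPM in the IWR-1 libraries, against 22.8, 25.7 and 27.3 CPM in the DMSO libraries. Replicates were tight, with coefficients of variation of 5.50% with IWR-1 and 9.14% with DMSO. smad6b fell by 0.65 ± 0.15 on the log2 scale (edgeR adjusted p = 0.0232). The call was lost without DMSO replicate 1 (edgeR adjusted p = 0.0540), and likewise when IWR-1 replicate 2 (0.116) or its replicate 3 (0.117) was omitted.

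Its paralog smad6a (ENSDARG00000053209; chromosome 7, 34182963 to 34192834, minus strand) had 15.6, 14.9 and 14.4 CPM in the IWR-1 libraries, against 20.3, 17.2 and 19.3 CPM in the DMSO libraries. The groups did not overlap, but the difference was small. The log2 fold change of -0.34 ± 0.15 (95% interval -0.67 to -0.01) did not pass the test over all genes (unadjusted p = 0.0430, edgeR adjusted p = 0.191).

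Follistatins are secreted proteins best known for trapping activins, and they are made by muscle and mesenchyme among other tissues. fstb (ENSDARG00000057992; chromosome 10, 8968203 to 8976823, plus strand) had 33.4, 33.8 and 29.2 CPM in the IWR-1 libraries, against 48.3, 56.0 and 43.3 CPM in the DMSO libraries. It fell by 0.61 ± 0.15 on the log2 scale (edgeR adjusted p = 0.0290). That p was 0.0956 with DMSO replicate 1 omitted, and 0.0629, 0.0977 and 0.173 with replicates 1, 2 and 3 of IWR-1 omitted in turn.

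fsta (ENSDARG00000052846; chromosome 5, 40504910 to 40510399, minus strand) had 35.4, 34.9 and 26.9 CPM in the IWR-1 libraries, against 50.7, 70.8 and 40.3 CPM in the DMSO libraries. The 3 IWR-1 libraries were the lowest of the 6, and DMSO replicate 2 was the highest. Its log2 fold change of -0.73 ± 0.21 missed the threshold (edgeR adjusted p = 0.0554), and the coefficient of variation was 14.7% with IWR-1 and 28.8% with DMSO. It was called with the replicate number as a block (edgeR adjusted p = 0.0020), with DESeq2 (adjusted p = 0.0177), with limma voom (adjusted p = 0.00372) and without DMSO replicate 3 (edgeR adjusted p = 0.0135). Those were 4 of the 14 alternatives, and fsta was called in only 1 of the 6 fits with 1 library omitted. The edgeR adjusted p was 0.120 without DMSO replicate 1, and 0.129 and 0.243 without replicates 2 and 3 of IWR-1. The authors' deposited table gave an adjusted p below 0.05 for 7 of the 10 genes, the 6 called here and fsta, all with a fold change below 0. Of the genes with an adjusted p in the authors' deposited table, 4.06% were called lower. Its adjusted p-values for the 10 genes were the same, once rounded, as those of the DESeq2 run here (0.0177 for fsta in both). It is therefore not a second check beside DESeq2.

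**Figure D2:**
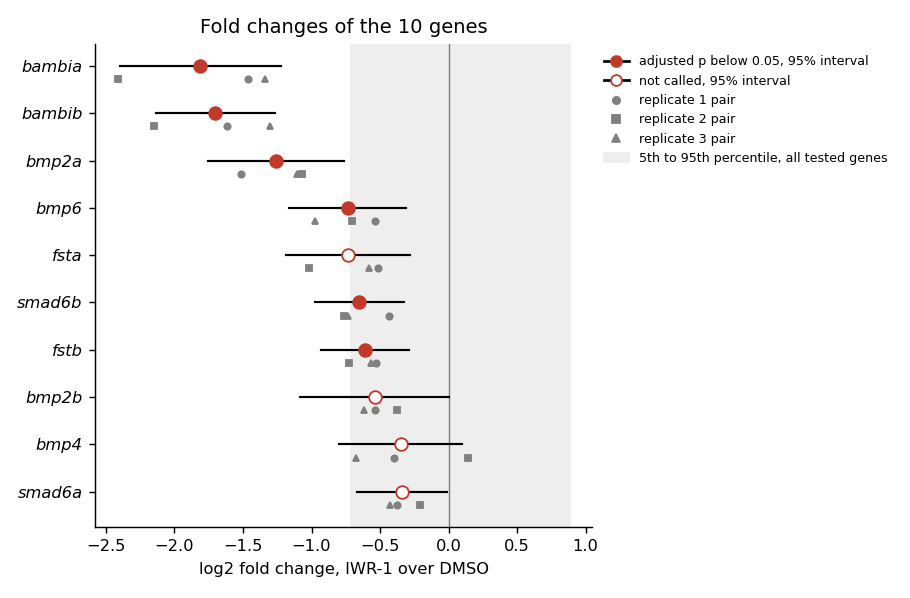
Log2 fold change of each gene (IWR-1 over DMSO, edgeR) with its 95% interval; filled circles passed at an adjusted p below 0.05, small grey markers are the log2 ratios of same-numbered libraries, and the grey band spans the 5th to 95th percentile of all 19562 tested genes (-0.71 to 0.88). bambia, bambib and bmp2a lie well below the band, and bmp6 and fsta lie at its lower edge.

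The calls of bmp6, smad6b and fstb were each lost under the omission of any of several libraries. Their log2 fold changes with 1 library omitted stayed between -0.92 and -0.65, between -0.72 and -0.59 and between -0.70 and -0.50. With DMSO replicate 1 omitted 3 of the 10 genes were called lower, and with replicate 2 or replicate 3 of IWR-1 omitted 3 were called as well; in each case these were bambia, bambib and bmp2a. The share of all tested genes called lower was then 1.70%, 1.38% and 0.957%. With DMSO replicate 2 omitted 6 were called (3.84% of all tested genes), with DMSO replicate 3 omitted 6 (5.46%) and with IWR-1 replicate 1 omitted 5 (2.13%). DESeq2 called 7 (4.06% of all genes it tested were lower), the replicate block 7 (8.86%) and limma voom with sample weights 10 (10.8%).

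The genes other than bmp4 and bmp6 come in 4 paralog pairs. The ratio of the 2 counts of a pair within a library shows whether the partners responded alike, free of library scaling. The bmp2a to bmp2b log2 count ratio was -1.07, -0.18 and -0.34 in the IWR-1 libraries, against -0.07, 0.52 and 0.16 in the DMSO libraries. All 3 IWR-1 ratios lay below all 3 DMSO ratios, a mean difference of -0.74. The two-sided exact permutation test gave p = 0.10, which is the smallest that 3 against 3 libraries allow, and 0.40 after adjustment over the 4 pairs.

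For smad6a to smad6b the ratios overlapped, averaging -0.10 ± 0.09 with IWR-1 and -0.41 ± 0.22 with DMSO (SD, n = 3 each; exact p = 0.20, adjusted 0.40). The bambia to bambib ratio averaged 0.76 ± 0.15 with IWR-1 and 0.81 ± 0.35 with DMSO (SD, n = 3 each; exact p = 0.80). The fsta to fstb ratio averaged 0.00 ± 0.11 with IWR-1 and 0.10 ± 0.22 with DMSO (SD, n = 3 each; exact p = 0.50). No difference in response between partners passed in any pair, and with 3 libraries a group the test could not have passed.

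**Figure D3:**
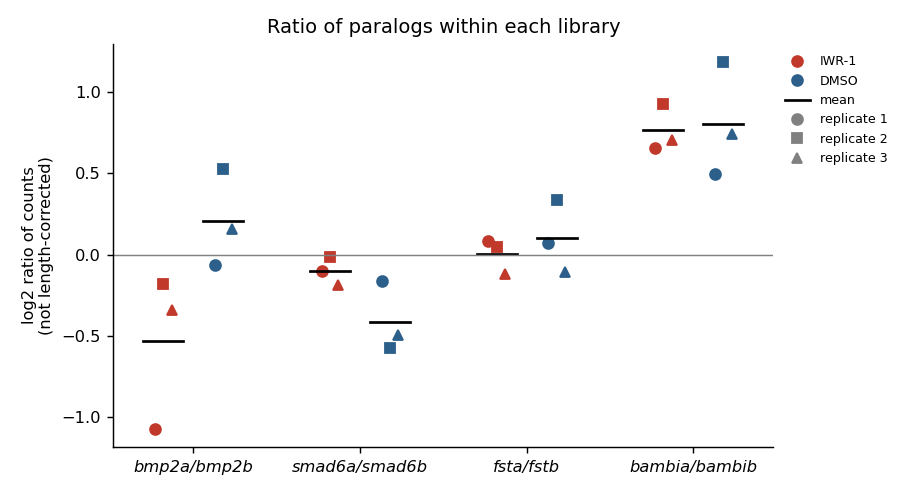
Log2 ratio of the counts of each paralog pair within each library, not corrected for gene length, with IWR-1 in red left of DMSO in blue and bars for the means. The bmp2a/bmp2b ratios of the IWR-1 libraries all lie below those of the DMSO libraries, and the ratios of the other 3 pairs overlap between the groups.

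The rest of the BMP and activin pathway was read from lists of 91 other genes, of which 76 were in the count table and 63 were tested. In these lists 8 genes fell and 0 rose with edgeR, where 3.59% of all tested genes fell and 3.88% rose. The replicate block called 12 lower and 0 higher, DESeq2 8 lower and 0 higher, and limma voom 16 lower and 1 higher. Over all genes each tested, the block called 8.86% lower, DESeq2 4.06% and limma voom 10.8%. The counts of each list below stand beside these same shares. An unadjusted p below 0.05 was found for 17 of the 63, all with a log2 fold change below 0. Over all tested genes 24.1% had one, counted in either direction. The median log2 fold change of the 63 genes was -0.18. These lists were also chosen with earlier results of these data known, so the shares do not test them as sets. The genes that fell were 4 secreted modulators and 4 msx homeobox genes.

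Among receptors, 0 of 14 tested genes passed with edgeR (0 by DESeq2, 0 by limma voom and 1 with the block, and 1 had an unadjusted p below 0.05), and their median log2 fold change was -0.01. The genes with the highest CPM, which is not corrected for length, were acvr2aa, an activin and BMP type II receptor, at -0.38 ± 0.19 on the log2 scale (edgeR adjusted p = 0.259), and bmpr1aa, a BMP type I receptor, at -0.28 ± 0.15 (edgeR adjusted p = 0.275). The 1 receptor called with the block was acvr1ba (-0.48, edgeR adjusted p = 0.0329), named after its value was seen.

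Of the signal-carrying Smads, Smad7 and the Smurf ubiquitin ligases, 0 of 9 passed with edgeR (0 by DESeq2, 1 by limma voom and 1 with the block, and 1 had an unadjusted p below 0.05). smad1, which carries the BMP signal, had a log2 fold change of -0.41 ± 0.15 (edgeR adjusted p = 0.122, and 0.0430 with the replicate block), and smad3a, which carries TGF-beta and activin signals, one of -0.17 ± 0.17 (edgeR adjusted p = 0.581). Of the other BMP ligands, 0 of 8 passed with edgeR (0 by DESeq2, 3 by limma voom and 0 with the block, and 3 had an unadjusted p below 0.05). gdf10a was at -0.12 ± 0.14 and bmp3 at -0.14 ± 0.29 on the log2 scale. Of the activin and inhibin subunit genes, whose products follistatin binds, 0 of 2 passed with edgeR (0 by DESeq2, 1 by limma voom and 0 with the block, and 1 had an unadjusted p below 0.05); inhbb was at -0.45 ± 0.18 (edgeR adjusted p = 0.152) and inhbaa at -0.27 ± 0.18 (edgeR adjusted p = 0.399).

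Of 21 secreted antagonists and modulators, 4 fell and 0 rose with edgeR (DESeq2 gave 4 lower and 0 higher, limma voom 7 lower and 1 higher, the block 6 lower and 0 higher, and 7 had an unadjusted p below 0.05). Over all tested genes, edgeR called 3.59% lower, DESeq2 4.06%, limma voom 10.8% and the block 8.86%. An unadjusted p below 0.05 in either direction was found for 24.1%. Follistatin-like genes made up 3 of the 4 modulator genes that fell with edgeR. fstl1a, which encodes a secreted glycoprotein that can modulate BMP signals, had 7.82, 7.38 and 6.44 CPM in the IWR-1 libraries, against 15.0, 20.9 and 17.5 CPM in the DMSO libraries, and fell by 1.30 ± 0.18 on the log2 scale (edgeR adjusted p = 0.00213). Its paralog fstl1b fell by 0.71 ± 0.15 (edgeR adjusted p = 0.0156), and fstl3, an activin-binding relative of follistatin, by 0.94 ± 0.18 (edgeR adjusted p = 0.0124). twsg1a, a twisted gastrulation homolog that acts with Chordin on BMPs, fell by 1.27 ± 0.25 (edgeR adjusted p = 0.0134). Its DMSO levels were 45.4, 73.5 and 33.7 CPM, and without DMSO replicate 2, the highest, its log2 fold change was -0.90 (edgeR adjusted p = 0.00484). The BMP antagonist gene nog1, named after its value was seen, was at -0.78 ± 0.22 and an edgeR adjusted p of 0.0565, or 0.0228 with the replicate block. rgma, a co-receptor gene likewise named after its value was seen, was at -0.49 ± 0.15 and an edgeR adjusted p of 0.0768, or 0.0159 with the block. bmp1a, a procollagen and Chordin protease, was at 0.01 ± 0.16 (edgeR adjusted p = 0.985), and rgmb, a relative of rgma, at -0.07 ± 0.16 (edgeR adjusted p = 0.841).

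Some of these calls were lost when a library was omitted. With DMSO replicate 1 omitted the edgeR adjusted p of fstl1b was 0.0668 and that of fstl3 0.0631. With IWR-1 replicate 2 omitted that of fstl1b was 0.0547, and with IWR-1 replicate 3 omitted those of fstl1b, fstl3 and twsg1a were 0.112, 0.0844 and 0.0803.

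Of the msx genes, homeobox genes expressed in the dorsal neural tube and the fins, all 4 that were tested fell. Over all tested genes, 3.59% were called lower. The other listed msx gene, msx1a, had too few counts to be tested, at 28 over the IWR-1 libraries and 33 over the DMSO libraries. It was named after its value was seen. msx2b had 6.10, 9.58 and 12.6 CPM in the IWR-1 libraries, against 28.8, 50.8 and 29.2 CPM in the DMSO libraries, a log2 fold change of -1.94 ± 0.29 (edgeR adjusted p = 0.00298). Without DMSO replicate 2, again the highest library, it was -1.61 (edgeR adjusted p = 0.00162). msx2a was at -2.37 ± 0.44 (edgeR adjusted p = 0.00947, with 29 counts over the IWR-1 libraries against 141 over the DMSO libraries), and without IWR-1 replicate 3 its log2 fold change was -3.27. msx1b fell by 1.17 ± 0.24 (edgeR adjusted p = 0.0141) and msx3 by 1.07 ± 0.16 (edgeR adjusted p = 0.00358). The adjusted p of msx1b was 0.0700 with IWR-1 replicate 2 omitted and 0.0723 with IWR-1 replicate 3 omitted. With IWR-1 replicate 3 omitted, 4 of the 8 pathway genes were called, fstl1a, msx2a, msx2b and msx3. In that fit 0.957% of all tested genes were called lower, against 3.59% with all libraries.

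Of the id genes, which encode inhibitors of bHLH transcription factors and are among the most direct BMP targets, 0 of 5 passed with edgeR, and 0 had an unadjusted p below 0.05; 0 were called by DESeq2, 0 by limma voom and 0 with the block. id1 had a log2 fold change of -0.28 (95% interval -0.60 to 0.03) and id2a one of 0.00 (95% interval -0.35 to 0.35). The groups did not overlap for id1, as for 15.6% of all tested genes in that direction. It had 98.9, 118 and 118 CPM in the IWR-1 libraries, against 121, 137 and 150 CPM in the DMSO libraries. The groups overlapped for the other id genes. The median of the 5 was -0.08. The difference between the msx and id families was not tested. The early ventral genes vox, vent and ved had too few counts to be tested.

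**Figure D4:**
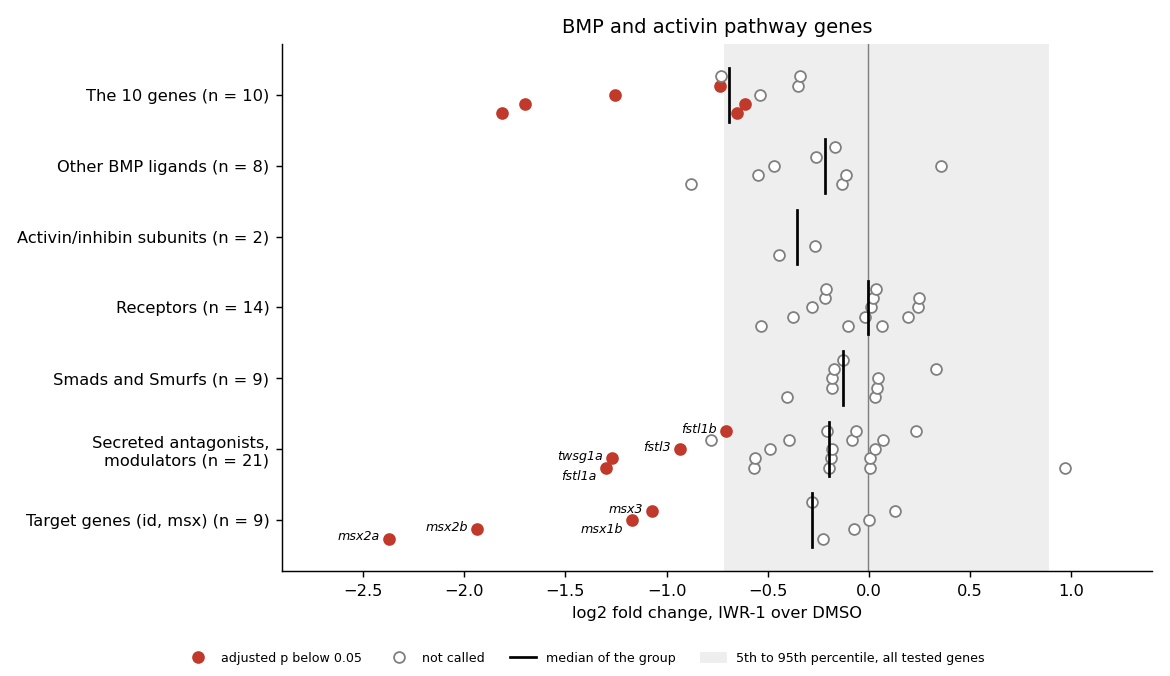
Log2 fold change (IWR-1 over DMSO, edgeR) of each tested gene of the pathway by role, with filled circles for an adjusted p below 0.05, a black bar for the median of each group and a grey band for the 5th to 95th percentile of all tested genes. The 8 called genes outside the main 10 are secreted modulators and msx genes, while receptors and Smads scatter around 0.

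The falls came together with lower levels of markers of some tissues. Over all tested genes, 3.59% were called lower and 3.88% higher. The 3 actinodin genes and1, and2 and and3, which mark fin fold mesenchyme, all fell, and summed to between 39.9 and 74.4 CPM in the IWR-1 libraries, against 406 to 421 CPM in the DMSO libraries. Fibroblast markers (3 of 7 lower) summed to between 7162 and 8771 CPM in the IWR-1 libraries, against 12756 to 16323 CPM in the DMSO libraries. Epidermal markers (2 of 5 lower) summed to between 2233 and 3238 CPM with IWR-1, against 3789 to 4537 CPM with DMSO. The epidermal genes that fell were the keratin genes krt4 and krt5. tp63 was at -0.47 ± 0.16 on the log2 scale and was not called (edgeR adjusted p = 0.109). The cell adhesion genes cdh1 and epcam were at 0.41 ± 0.19 (edgeR adjusted p = 0.203) and -0.07 ± 0.18 (edgeR adjusted p = 0.858). The fibroblast genes that fell were col1a1a, col1a2 and prrx1a. pdgfra, pdgfrb and col5a1 were at -0.39 ± 0.16, -0.28 ± 0.19 and -0.43 ± 0.17 (edgeR adjusted p = 0.178, 0.392 and 0.162). twist1a lay the other way, at 0.09 ± 0.22 (edgeR adjusted p = 0.833). col1a1a and col1a2 made up most of the fibroblast sum, with means of 3659 and 2926 CPM with IWR-1, against 7052 and 4965 CPM with DMSO. These marker genes were named after their values were seen. Pigment cell markers (3 of 5 lower) summed to between 42.7 and 54.7 CPM with IWR-1, against 197 to 220 CPM with DMSO. These sums also lay apart for bone markers (1 of 4 lower), at 12.7 to 23.6 CPM with IWR-1 against 34.4 to 45.7 CPM with DMSO, and for endothelial markers (1 of 4 lower), at 68.8 to 93.7 CPM with IWR-1 against 98.1 to 117 CPM with DMSO. Most of the bone sum was spp1, the bone gene called, with means of 10.5 CPM with IWR-1 and 23.4 CPM with DMSO. The groups overlapped for sp7, runx2b and col10a1a, at -1.13, -0.69 and -0.80 on the log2 scale (edgeR adjusted p = 0.157, 0.241 and 0.398). These bone genes were also named after their values were seen.

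Muscle (0 of 6 called), neuron (0 of 5), neutrophil (0 of 3 tested), ependymo-radial glia (1 of 4 tested lower) and notochord and floor plate markers (1 of 5 lower) had sums that overlapped between the groups. The glial gene called was slc1a3b, at -0.57 ± 0.14 on the log2 scale (edgeR adjusted p = 0.0366). Most of the glial sum was gfap (means of 699 CPM with IWR-1 and 728 CPM with DMSO). The notochord gene called was col9a1a, at -2.07 ± 0.31 (edgeR adjusted p = 0.00346), with means of 1.02 CPM with IWR-1 and 4.28 CPM with DMSO. In that list 3 of the 5 genes lay above 0, as did 1 of the 4 glial genes. Macrophage and microglia sums overlapped too, but 4 of 7 genes were higher: mpeg1.2, lcp1, ptprc and cybb, at 1.24, 1.05, 0.81 and 1.36 on the log2 scale. Most of that sum was apoeb (means of 562 CPM with IWR-1 and 705 CPM with DMSO). apoeb was the only 1 of the 7 below 0, at -0.33 ± 0.17 (edgeR adjusted p = 0.278). These genes were named after their values were seen. As above, 3.59% of all tested genes were called lower and 3.88% higher. her4.1, a glial marker, was at 0 in DMSO replicate 2, and the other listed markers in the count table were above 0 in every library. The part of these tissues in the falls of the 10 genes was not tested.

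**Figure D5:**
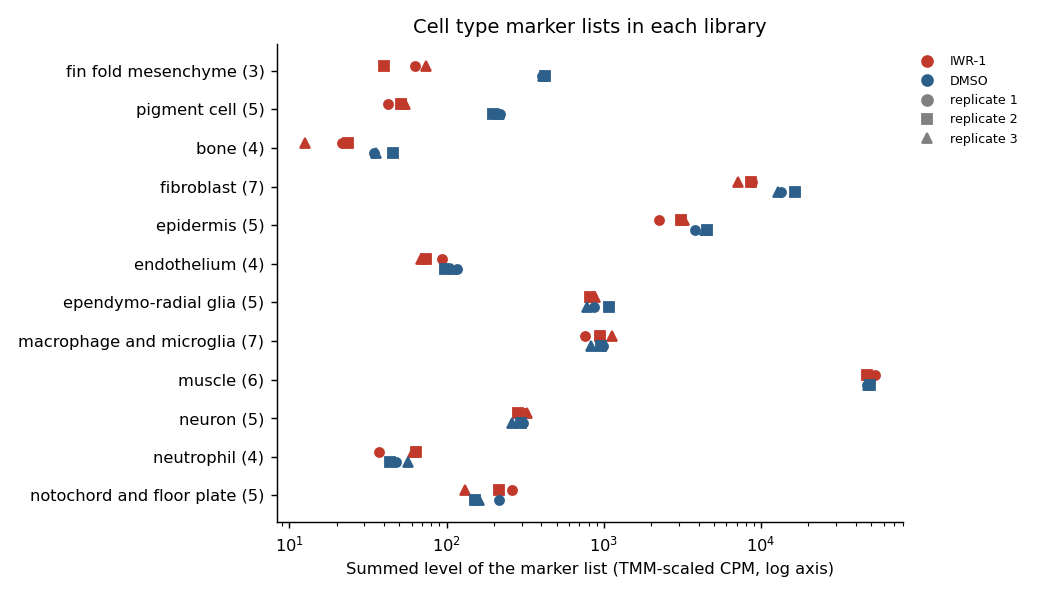
Summed level of each cell type marker list in each library (TMM-scaled CPM, log axis; the number of genes in parentheses), with IWR-1 in red above DMSO in blue. Fin fold mesenchyme and pigment cell lists differ most between the groups, and the muscle, neuron and glia lists overlap.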

How the data were processed

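The submitters' processing notes name cutadapt, FastQC, STAR, featureCounts and build GRCz11, without versions or strand setting. RNA was isolated with a kit for fixed tissue, per the labels' protocols. The authors deposited raw counts for each Ensembl gene, whose columns were matched to samples through their sample sheet. Their deposited comparison gives log2 fold changes, p-values and adjusted p-values, under DESeq2 column names per the file headers. Names and coordinates come from the deposited annotation.

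Counts were fitted over all genes with edgeR 4.0.16 (R 4.3.3): TMM scaling, the filterByExpr filter, a robust quasi-likelihood model with treatment as its only term, and Benjamini-Hochberg adjustment over 19562 genes. SE is the log2 fold change divided by the root of F. Alternatives were a replicate block, 2 other scalings, 2 other filters, DESeq2 1.42.0, limma 3.58.1 voom with sample weights, omission of mitochondrial and the 10 most abundant genes, and omission of each library. The scripts were tested on simulated data with 200 changed genes. They recovered 0% of 1.5-fold changes, 59.5% of 2-fold changes and 92.5% of 4-fold changes, with 0, 9 and 9 false calls. A gene that was not called may therefore still have changed. Fewer genes were changed in the simulation than were called in the data (703 lower and 759 higher), so the recovery in the data may differ. The members and lists were chosen with earlier results of these data known. All members, all called pathway genes and up to 2 abundant others of a list were named; any other gene is marked as named after its value was seen.

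Same-numbered libraries deviated together (correlations of their deviations from group means of 0.350, 0.398 and 0.182). This rests on the values alone, as no label explains the numbers, so block values are given where a call of a named list changes. Libraries of a group differed beyond sampling noise (chi-square of at least 8.18 for each degree of freedom). Gene lengths were not used, and CPM, not corrected for length, ranked genes only to choose which uncalled ones to name.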

Additional observations from a re-analysis of the deposited data

How the results depend on the processing

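Over all genes, 703 were lower and 759 higher; the replicate block gave 1733 lower and 1753 higher, and limma voom 2105 and 2347. Of the 10 genes, limma voom called 10 lower, the block 7, DESeq2 7 and upper-quartile scaling 5. Over all genes each tested, limma voom called 10.8% lower, the block 8.86%, DESeq2 4.06% and upper-quartile scaling 3.26%. Of the 63 other pathway genes the block called 12 lower and 0 higher. For limma voom these were 16 lower and 1 higher, the BMP antagonist gene grem2b, named after its value was seen. Leaving out 1 library gave between 189 and 1082 lower and between 258 and 1035 higher genes, between 3 and 6 of the 10 genes lower, and between 4 and 10 other pathway genes lower and between 0 and 1 higher. The log2 fold changes of the 10 genes were below 0 in 140 of 140 values over the 14 alternatives. These alternatives refit the same libraries, so the values are not separate observations. Under the replicate block the other calls among the 10 genes were the same, apart from fsta. The mean difference of paralog ratios with 1 library left out ran from -0.91 to -0.47 for bmp2a to bmp2b and from 0.23 to 0.44 for smad6a to smad6b. It ran from -0.20 to 0.021 for fsta to fstb and from -0.20 to 0.15 for bambia to bambib, so those 2 changed sign; the cause was not tested. A paired exact test of these ratios gave p of 0.25, 0.25, 0.50 and 0.75, with 0.25 the smallest it can give. With 24 to 33 counts per IWR-1 library, bmp2a is the gene of the 10 whose level is most limited by depth.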
